A study of Mus musculus with 6 samples.

Results

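The guidance genes are the semaphorins with their plexin and neuropilin receptors, the Eph receptors with their ephrin ligands, the Slits with their Robo receptors, and the netrins with Dcc and the Unc5 receptors. They were picked by gene symbol, with earlier results of these data known. The symbols gave 69 of the 23845 genes in the count table: 20 semaphorins, 9 plexins, 2 neuropilins, 14 Eph receptors, 8 ephrins, 3 Slits, 4 Robos, 4 netrins and 5 netrin receptors (Dcc and the Unc5 genes). The series holds 6 RNA-seq libraries of intestinal epithelial cells from mice, in 3 groups of 2. EGFP cells were isolated by flow sorting for Neurog3 expression from C57BL6 mice with 1 Neurog3 allele and an EGFP reporter (genotype Neurog3+/-EGFP), and EYFP cells from mice of mixed C57BL6 and CD1 strain with 2 Neurog3 alleles and an EYFP reporter (Neurog3+/+EYFP). The third group was wild-type C57BL6 epithelium, whose titles (Duod) differ from the others and whose labels mention neither a reporter nor sorting. The sources used here give no ages, sorting gates, gut segment for the reporter cells or number of animals per library. Neurog3 commits intestinal progenitors to the enteroendocrine lineage, and the series asks how its gene dose affects their differentiation.

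These proteins steer growing axons and also position cells in epithelia and vessels. Class 3 semaphorins are secreted and bind neuropilins, which signal through plexins, whereas most other semaphorins are membrane-bound and bind plexins directly. Ephrins are tethered to the cell surface and signal at cell contacts to Eph receptor tyrosine kinases. In the intestine, EphB receptors are Wnt targets of the crypt, and with the ephrin-B ligands of the villus they keep cell types in their places along the crypt-villus axis. Slits signal through Robos, and netrins through Dcc, neogenin and the Unc5 family, whose members can also act as dependence receptors that promote cell death when unbound.

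Levels are given in CPM, counts scaled to the depth of each library, and differences as log2 fold changes ± standard error (SE). A gene rose or fell only where its adjusted p from edgeR's quasi-likelihood test, adjusted over all 13935 genes tested, was under 0.05. Of the 69 members, 47 had enough counts to be tested. Library totals ranged from 7938358 to 20589683 counts, and the members together took 0.2% to 0.256% of them. Nothing in the labels says that the libraries of a group came from separate animals, so the p-values measure only the spread between these libraries. Neurog3 itself stood at 120 and 179 CPM in EGFP, 563 and 348 CPM in EYFP, and 6 and 6.39 CPM in wild type. All 11 enteroendocrine markers rose in EYFP against EGFP cells, while all 6 goblet and all 5 Paneth markers fell. The summed goblet markers stood at 56100 and 93000 CPM in EGFP, 681 and 1750 CPM in EYFP, and 5090 and 5890 CPM in wild type. Xist, the RNA that silences an X chromosome in females, was at 966 and 969 CPM in EGFP, 0.634 and 2.36 CPM in EYFP, and 1.17 and 726 CPM in wild type. Strain, reporter, sex-linked transcripts and allele number therefore cannot be told apart between EGFP and EYFP cells. Some macrophage transcripts stood high in single libraries. Lyz2 was at 29.3 CPM in EGFP replicate 2 and 207 CPM in EYFP replicate 1, against 0.482 and 0.168 CPM in the other library of each group. Csf1r was at 0 and 3.3 CPM in EGFP and 19.3 and 0 CPM in EYFP. Cd68 did not share this, at 2.89 and 1.52 CPM in EGFP and 4.37 and 2.44 CPM in EYFP. In bulk RNA, fewer cells of a type and less RNA per cell cannot be told apart.

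Between EYFP and EGFP cells, both neuropilins, Epha7, Slit1, Unc5a and the plexins Plxnb1, Plxna3 and Plxnc1 were higher in EYFP cells, while Unc5b, Epha1, Ephb4, Efnb2 and Sema3b were lower. Of the 47 tested members, 15 rose, 9 fell and the other 23 did not pass. In the same comparison 36.2% of all tested genes were called, 16.8% higher and 19.4% lower, against 51.1%, 31.9% and 19.1% of the tested members. The share lower is thus near the background. The median log2 fold change of the tested members was 0.33, and that of all tested genes 0.01. Without EGFP replicate 1 the members called fell to 14, and without EYFP replicate 1 to 15, while the share of all tested genes called fell to 17.6% and 19.9%. Of the 15 higher, Nrp1, Sema6a, Epha7, Plxna3, Plxnb1, Slit1, Unc5a and Sema3c kept their call whichever library was left out, as did Ephb4, Epha1 and Unc5b of the 9 lower.

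**Figure D1:**
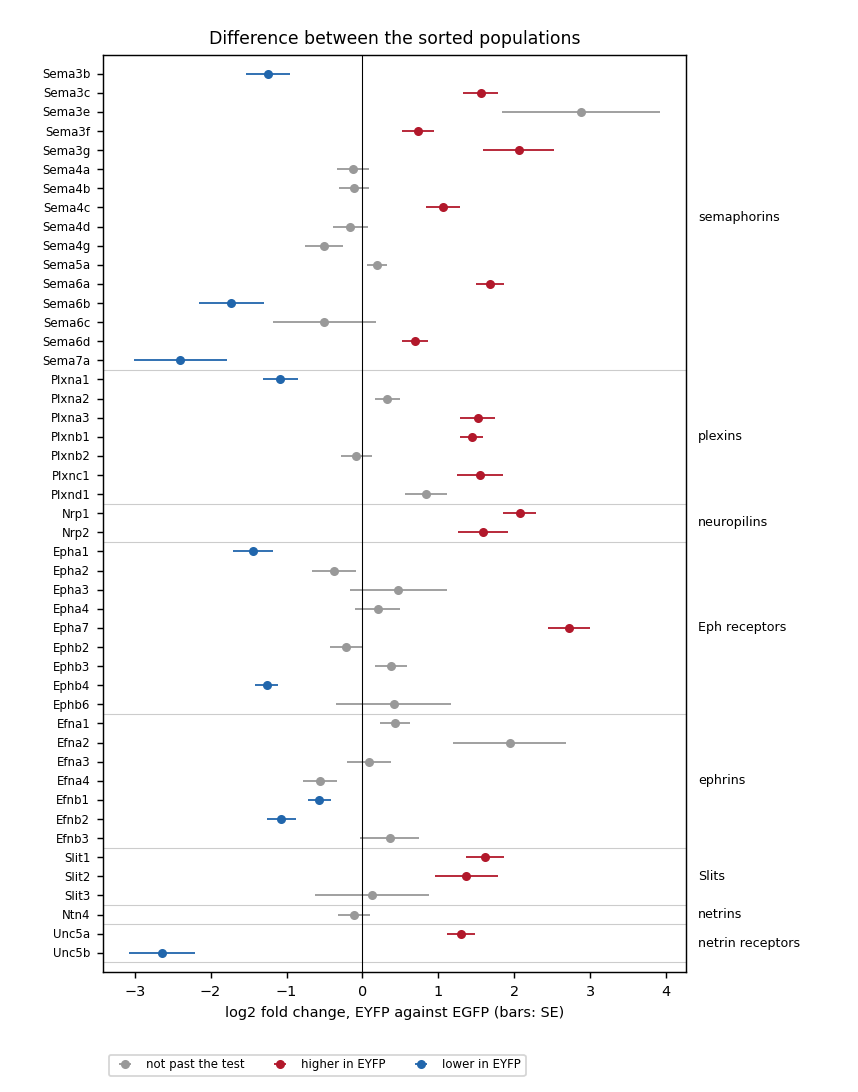
Log2 fold change of each of the 47 tested members in EYFP against EGFP cells (bars: SE, 2 libraries per group), grouped by family. Both neuropilins lie to the right of 0, Unc5a and Unc5b lie on opposite sides, and Epha7 has the largest change among members past the test (2.72).

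Each sorted population was also set beside wild-type epithelium, which serves as the control of both comparisons, so that they share its 2 libraries. EGFP cells had 18 members higher and 11 lower (61.7% of those tested, against 41.5% of all genes: 19.6% higher and 21.9% lower). EYFP cells had 22 higher and 15 lower (78.7%, against 60.6% of all genes: 27.1% higher and 33.5% lower). The median log2 fold change of the tested members was 0.34 in EGFP and 0.78 in EYFP cells, where that of all tested genes was 0 and -0.12. Scaling with DESeq2 size factors moved the all-gene median of EYFP against wild type from -0.12 to -0.01, so small differences in that comparison shift by this amount.

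**Figure D2:**
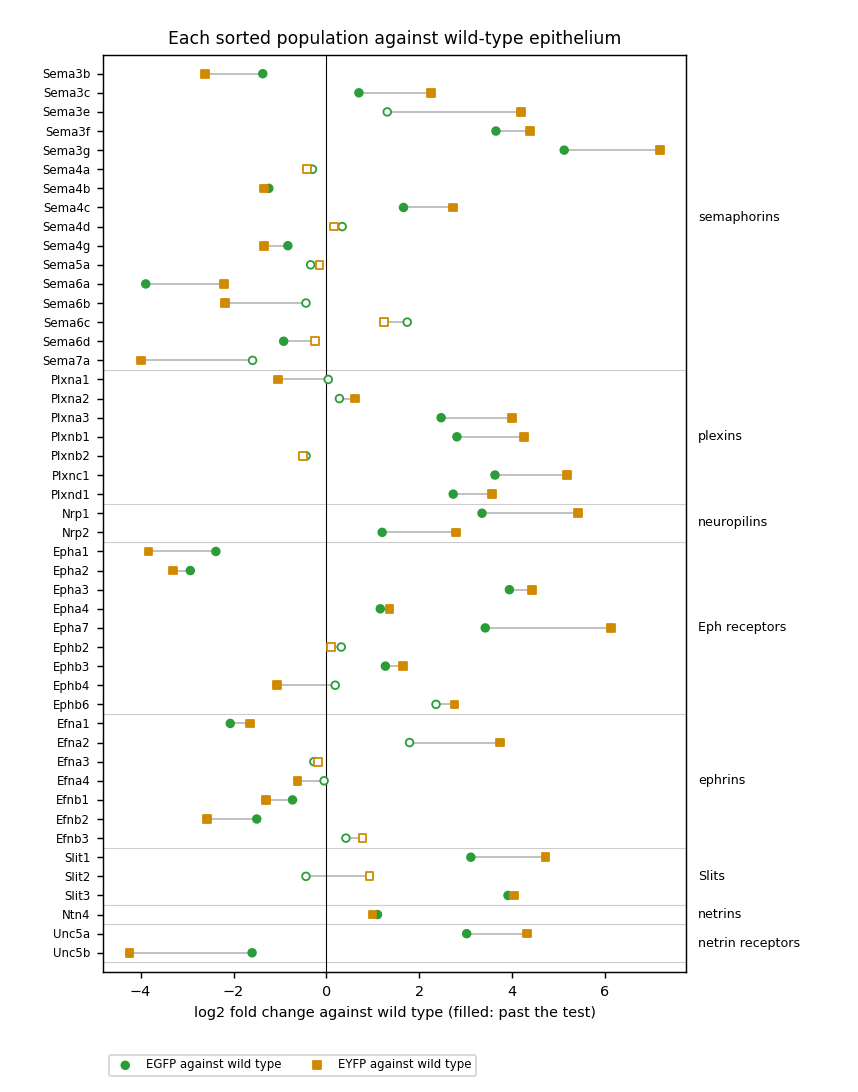
Log2 fold change of the 47 tested members against wild-type epithelium in EGFP cells (circles) and EYFP cells (squares); filled symbols passed the test, and a line joins the values of a gene. Neuropilins, Plxna3, Plxnb1, Plxnc1, Plxnd1, Slit1 and Unc5a lie right of 0 in both, while Epha1, Epha2, Efna1, Efnb2 and Sema6a lie left of 0 in both.

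The neuropilins, co-receptors that bind class 3 semaphorins and VEGF, both rose. Nrp1 stood at 18.8 and 25.4 CPM in EGFP, 98.5 and 88.1 CPM in EYFP, and 1.67 and 2.59 CPM in wild type. The groups did not overlap, with wild type at the bottom and EYFP at the top. Nrp1 was 4.21-fold higher in EYFP cells than in EGFP cells (2.07 ± 0.22 on the log2 scale, edgeR adjusted p = 0.00063), and 10.2-fold higher in EGFP cells than in wild type (3.35 ± 0.26, adjusted p = 7.3e-05). Nrp2 stood at 7 and 5.5 CPM in EGFP, 19.7 and 17.8 CPM in EYFP, and 1.75 and 3.56 CPM in wild type. It was 3.01-fold higher in EYFP than in EGFP cells (1.59 ± 0.33, edgeR adjusted p = 0.0089), a call lost when EGFP replicate 2 (0.053) or EYFP replicate 1 (0.052) was left out. Against wild type, Nrp2 was 1.20 ± 0.35 higher in EGFP cells on the log2 scale (edgeR adjusted p = 0.028) and 2.79 ± 0.35 higher in EYFP cells. The former was 0.80 (adjusted p = 0.079) without wild-type replicate 1 and 1.82 without wild-type replicate 2, and it was also lost without either EGFP library, without EYFP replicate 1 and in the fit to only the 4 libraries compared. The latter was 3.41 without wild-type replicate 2.

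Among the 4 secreted class 3 semaphorins with named values, 3 were highest in EYFP cells and 1 in wild type. Sema3c stood at 9.65 and 8.54 CPM in EGFP, 24.8 and 28.6 CPM in EYFP, and 6.41 and 4.82 CPM in wild type, a rise of 1.56 ± 0.23 on the log2 scale between EGFP and EYFP cells (edgeR adjusted p = 0.002). EYFP libraries were the high ones. EGFP cells lay closer to wild type (0.70 ± 0.24, adjusted p = 0.046, a call lost without either EGFP library, either EYFP library or wild-type replicate 2, with no filter on low counts, with the replicate number as a block at 0.05, and in the fit to the 4 libraries compared). Sema3f stood at 11.2 and 11.8 CPM in EGFP, 20 and 18.2 CPM in EYFP, and 0.833 and 0.965 CPM in wild type. Here the larger step lay between wild type and EGFP cells (3.65 ± 0.26, edgeR adjusted p = 5.7e-05), and the step from EGFP to EYFP cells (0.73 ± 0.21, adjusted p = 0.029) was lost without any 1 of those 4 libraries (adjusted p from 0.096 to 0.16). Sema3g stood at 1.09 and 1.94 CPM in EGFP and 6.7 and 6.23 CPM in EYFP (2.06 ± 0.47, edgeR adjusted p = 0.012; 0.073 without EGFP replicate 1 and 0.055 without EYFP replicate 1). Wild type held a single count of Sema3g over both libraries. The level in EYFP cells was 185-fold that of wild type, with a counting interval of 32.8 to 7360 (exact, 95%, counting error only), and the level in EGFP cells 45.5-fold, with an interval of 7.6 to 1850. Without wild-type replicate 2, which held that count, EYFP cells were at least 25.9-fold and EGFP cells at least 6.37-fold higher, from a floor of 3 counts; without wild-type replicate 1 the ratios were 107 and 26.4. Sema3b went the other way, at 36.9 and 40.6 CPM in EGFP, 14.3 and 18.5 CPM in EYFP, and 71.9 and 129 CPM in wild type. All 3 groups lay apart for Sema3b, with EYFP the lowest (-1.24 ± 0.29 against EGFP, edgeR adjusted p = 0.016). That call was lost without either EGFP library (0.062 and 0.07) or without EYFP replicate 1 (0.088), and the fall against wild type in EGFP cells (-1.37 ± 0.28, adjusted p = 0.0075) without EGFP replicate 1 (0.059).

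The promoters of Nrp1 and of the class 3 semaphorins Sema3c and Sema3g are shown because these genes all rose from EGFP to EYFP cells, beside that of Epha1, which fell. Each is the stretch of 250 bases before the start site set for that promoter (GRCm38.p6, the assembly of mm10). Each E-box CANNTG, the letters that basic helix-loop-helix factors such as Neurog3 recognise, is in capitals. For Nrp1 the RefSeq gene starts upstream of this window, at 128358591, and for Epha1 within it, at 42373314.
Nrp1 (chr8:128358823-128359072, plus strand): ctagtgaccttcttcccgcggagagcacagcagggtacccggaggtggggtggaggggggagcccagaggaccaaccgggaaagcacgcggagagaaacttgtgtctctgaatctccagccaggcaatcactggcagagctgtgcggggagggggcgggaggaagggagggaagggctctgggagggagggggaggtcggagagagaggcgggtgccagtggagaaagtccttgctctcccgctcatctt
Sema3c (chr5:17574566-17574815, plus strand): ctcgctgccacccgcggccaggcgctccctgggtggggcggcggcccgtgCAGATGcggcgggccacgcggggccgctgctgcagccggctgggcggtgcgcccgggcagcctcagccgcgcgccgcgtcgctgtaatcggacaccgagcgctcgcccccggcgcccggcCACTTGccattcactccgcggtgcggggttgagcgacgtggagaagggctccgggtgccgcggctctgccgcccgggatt
Sema3g (chr14:31217623-31217872, plus strand): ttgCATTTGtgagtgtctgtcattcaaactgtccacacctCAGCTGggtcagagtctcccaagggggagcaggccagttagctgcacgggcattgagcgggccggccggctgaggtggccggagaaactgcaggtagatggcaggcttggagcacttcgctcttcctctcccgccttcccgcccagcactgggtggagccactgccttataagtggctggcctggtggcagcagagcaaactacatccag
Epha1 (chr6:42373269-42373518, minus strand): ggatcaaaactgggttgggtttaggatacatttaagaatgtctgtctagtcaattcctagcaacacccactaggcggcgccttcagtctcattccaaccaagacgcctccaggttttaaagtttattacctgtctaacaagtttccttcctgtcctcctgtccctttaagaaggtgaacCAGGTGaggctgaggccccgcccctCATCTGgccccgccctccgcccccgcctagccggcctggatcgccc

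Nrp1 holds no CANNTG in this window, Sema3c has them 200 and 80 bases before the start site, Sema3g at 247 and 210, and Epha1 at 71 and 46. The form CAGATG, a subset of CANNTG searched on both strands, is present in Sema3c and, on the other strand, in Epha1. Promoter windows of 300 bases (250 before to 50 after the start) were used for 59 members, 75 windows in all. Dcc and Sema6a, both on chromosome 18, were left out, and other members, among them Slit1, Sema3f, Plxna1 and Sema3b, had no window. The counts therefore cover 12 of the 15 members that rose, without Sema6a, Slit1 and Sema3f. Of the 9 that fell they cover 7, without Plxna1 and Sema3b. No chromosome was left out of the windows of all promoters. CANNTG was present in 38 of them (50.7%) and CAGATG in 5 (6.67%), searched on both strands, against 72.3% and 17.2% of the 32851 promoter windows in the table. The windows of members that rose from EGFP to EYFP cells held CANNTG in 7 of 15 cases, and those of members that fell in 4 of 8. These are letter matches and do not show binding.

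Plexins carry the semaphorin signal into the cell, and those that rose were Plxna3, Plxnb1 and Plxnc1. Plxnb1, the receptor of Sema4d, stood at 54.9 and 64.8 CPM in EGFP, 166 and 159 CPM in EYFP, and 7.91 and 9.11 CPM in wild type. Libraries of a group lay close together and the groups far apart. The log2 fold change was 1.44 ± 0.15 between EYFP and EGFP cells (edgeR adjusted p = 0.00057) and 2.81 ± 0.16 between EGFP cells and wild type (adjusted p = 2.8e-05). Plxna3, a partner of neuropilins, was at 17.4 and 18.9 CPM in EGFP, 48.3 and 56 CPM in EYFP, and 4.16 and 2.47 CPM in wild type (1.52 ± 0.23 between EYFP and EGFP cells, edgeR adjusted p = 0.0025). Plxna3 is X-linked, as are Plxnb3 and Efnb1, and the groups differ in sex-linked transcripts. Plxnc1, the receptor of Sema7a, stood at 7.6 and 6.34 CPM in EGFP, 17.5 and 23.3 CPM in EYFP, and 0.333 and 0.724 CPM in wild type. Its rise from EGFP to EYFP cells was 1.55 ± 0.30 (edgeR adjusted p = 0.0065; 0.053 without EYFP replicate 2), and its values against wild type were 3.63 in EGFP and 5.18 in EYFP cells, or 4.34 and 5.89 without wild-type replicate 2.

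Plxnd1, the receptor of Sema3e, had 17.7 and 13.8 CPM in EGFP, 35 and 21.2 CPM in EYFP, and 2.08 and 2.59 CPM in wild type. It was higher than wild type in both sorted populations (2.73 ± 0.32 and 3.57 ± 0.33), and between them it lay at 0.84 ± 0.28 with an edgeR adjusted p of 0.051, which was 0.038 with DESeq2 size factors and 0.03 without EYFP replicate 2. Plxna1 fell, with 37.1 and 34.6 CPM in EGFP, 20.9 and 13 CPM in EYFP, and 34.9 and 34.6 CPM in wild type. EYFP cells were the low group for this gene (-1.08 ± 0.23 against EGFP, edgeR adjusted p = 0.0096; 0.067 without EGFP replicate 1), and EGFP cells stood beside wild type (0.04 ± 0.22, adjusted p = 0.89). Plxna2 stood at 57 and 55.5 CPM in EGFP, 76.7 and 64.7 CPM in EYFP, and 52.2 and 40.3 CPM in wild type, and passed the test only for EYFP against wild type (0.61 ± 0.17, edgeR adjusted p = 0.014; 0.095 without EYFP replicate 1 and 0.067 without wild-type replicate 2). Plxnb2, whose level per length was the highest of the plexins in every group, lay at 304 and 353 CPM in EGFP, 296 and 327 CPM in EYFP, and 376 and 512 CPM in wild type. It passed in none of the 3 comparisons.

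Membrane-bound semaphorins went in both directions. Sema4c stood at 8.92 and 10.7 CPM in EGFP, 20.7 and 20.4 CPM in EYFP, and 3.33 and 2.89 CPM in wild type, 1.06 ± 0.22 higher in EYFP than in EGFP cells (edgeR adjusted p = 0.0078; 0.053 without EGFP replicate 1 and 0.051 without EYFP replicate 1). Sema6a, which can act both as ligand and as receptor, rose from EGFP to EYFP cells although wild type was its highest group. Its values were 4.94 and 5.24 CPM in EGFP, 16.7 and 16.1 CPM in EYFP, and 69.8 and 82 CPM in wild type. EYFP cells lay between the other groups, 3.21-fold above EGFP (1.68 ± 0.18, edgeR adjusted p = 0.00064) and 4.63-fold below wild type (-2.21 ± 0.16, adjusted p = 2.3e-05). Sema6d had the same order of group means, at 22.4 and 22.5 CPM in EGFP, 34.5 and 37.9 CPM in EYFP, and 46.9 and 38.3 CPM in wild type. EYFP and wild-type cells did not differ past the test for Sema6d (-0.24 ± 0.16, edgeR adjusted p = 0.24), and its rise from EGFP to EYFP cells (0.69 ± 0.17, adjusted p = 0.015) was lost without either EGFP library and without EYFP replicate 2 (0.069 to 0.084).

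Sema7a, a GPI-anchored semaphorin that binds Plxnc1 and integrins, had its lowest values in EYFP cells, at 27.7 and 23.9 CPM in EGFP, 5.57 and 4.12 CPM in EYFP, and 36.6 and 119 CPM in wild type. The wild-type libraries were far apart from each other. The log2 fold change of -2.40 ± 0.61 between EYFP and EGFP cells passed (edgeR adjusted p = 0.03), but was lost without any 1 of those 4 libraries (0.086 to 0.16), with no filter on low counts (0.12) and with the replicate number as a block (-2.39, adjusted p = 0.06). Against wild type EYFP cells lay at -3.99 ± 0.62, which was -4.60 without wild-type replicate 1 and -2.91 without wild-type replicate 2, and EGFP cells at -1.59 ± 0.55 (edgeR adjusted p = 0.067; 0.0054 in the DESeq2 Wald test, and -2.20 with 0.00043 without wild-type replicate 1). Sema4g stood at 290 and 406 CPM in EGFP, 192 and 296 CPM in EYFP, and 620 and 616 CPM in wild type. Both sorted populations were below wild type for Sema4g, EGFP by -0.83 ± 0.25 on the log2 scale (edgeR adjusted p = 0.031; 0.29 without EGFP replicate 1, and 0.094 and 0.099 without either wild-type library) and EYFP by -1.34 ± 0.25. Sema4b was likewise lower in both (-1.24 ± 0.20 in EGFP cells, edgeR adjusted p = 0.0019), at 34.1 and 43.1 CPM in EGFP, 36.3 and 35.4 CPM in EYFP, and 75.9 and 106 CPM in wild type. The sorted groups overlapped for Sema4b and Sema4g. Sema6b was below 6 CPM in every library and had a log2 fold change of -1.73 ± 0.43 between EYFP and EGFP cells (edgeR adjusted p = 0.017), lost without 3 of those 4 libraries (all but EGFP replicate 2). Sema4a, Sema4d and Sema5a passed in none of the 3 comparisons.

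**Figure D3:**
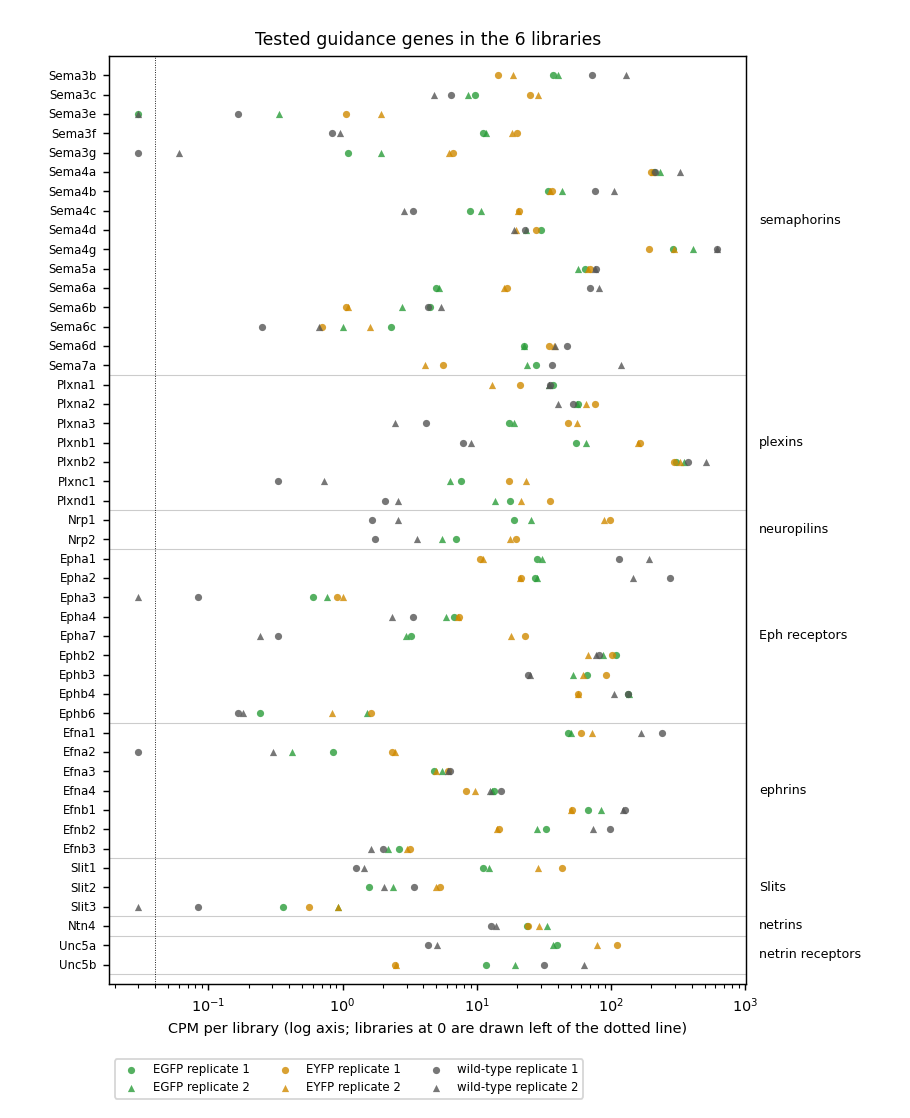
CPM of the 47 tested members in each library on a log axis, coloured by group, with circles for replicate 1 and triangles for replicate 2; libraries at 0 are drawn left of the dotted line. For Nrp1, Plxnb1, Plxna3, Slit1 and Unc5a the EYFP libraries lie rightmost and the wild-type libraries leftmost, and for Epha1, Efnb2 and Unc5b the order is turned round.

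Eph receptors did not share 1 pattern. Epha7, a receptor of ephrin-A ligands, had the largest rise from EGFP to EYFP cells among the members past the test. It stood at 3.26 and 2.96 CPM in EGFP, 22.9 and 17.9 CPM in EYFP, and 0.333 and 0.241 CPM in wild type. Epha7 was 6.57-fold higher in EYFP cells than in EGFP cells (2.72 ± 0.28 on the log2 scale, edgeR adjusted p = 0.00058), and EGFP cells 10.7-fold more than wild type (3.42 ± 0.39, adjusted p = 0.00037). Epha1 and Epha2 were lower than wild type in both sorted populations. Against wild type, enterocyte markers moved the same way as these and as Efna1, Efnb2, Sema4b and Sema6a. Summed, they went from 19600 and 31500 CPM in wild type to 1440 and 1870 CPM in EGFP and 1260 and 1840 CPM in EYFP. Between the sorted groups these sums overlapped, and 1 of the 7 markers fell, whereas Epha1 and Efnb2 fell and Sema6a rose. The part of enterocytes was not tested. Epha1, an epithelial receptor, was at 28.3 and 30.4 CPM in EGFP, 10.5 and 11.1 CPM in EYFP, and 114 and 193 CPM in wild type, and differed in each step (-2.38 ± 0.25 for EGFP against wild type, edgeR adjusted p = 0.00032, and -1.44 ± 0.26 for EYFP against EGFP, adjusted p = 0.0051). Epha2, a receptor at epithelial cell contacts, was at 27.1 and 27.9 CPM in EGFP, 21.2 and 21 CPM in EYFP, and 275 and 145 CPM in wild type. Against wild type it was 7.63-fold lower in EGFP and 9.94-fold lower in EYFP cells, and the sorted groups differed by -0.38 ± 0.29 (edgeR adjusted p = 0.34; 0.047 without wild-type replicate 2).

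The EphB receptors did not share 1 direction either. Ephb2 lay at 110 and 87.3 CPM in EGFP, 102 and 67.8 CPM in EYFP, and 81.4 and 76.9 CPM in wild type. The EYFP range enclosed that of wild type, and no comparison passed (edgeR adjusted p from 0.27 to 0.7). The log2 fold change of Ephb2 between EYFP and EGFP cells was -0.22 ± 0.21, and its sign turned without EGFP replicate 1 (0.02) or EYFP replicate 2 (0.05). Ephb3 stood at 66.5 and 52.1 CPM in EGFP, 92.2 and 61.7 CPM in EYFP, and 24.2 and 24.8 CPM in wild type. Both sorted populations lay above wild type for Ephb3, EGFP cells by 1.27 ± 0.22 (edgeR adjusted p = 0.0027) and EYFP cells by 1.65 ± 0.22 (adjusted p = 0.00044), while the sorted groups overlapped and did not pass (0.38 ± 0.21, adjusted p = 0.2). Ephb4, a receptor of ephrin-B2, stood at 135 and 137 CPM in EGFP, 56.5 and 57.2 CPM in EYFP, and 134 and 106 CPM in wild type. EYFP cells were the low group, by -1.26 ± 0.15 against EGFP (edgeR adjusted p = 0.00098) and -1.07 ± 0.15 against wild type (adjusted p = 0.00053), while EGFP cells lay just above wild type without passing the test (0.19 ± 0.15, adjusted p = 0.36). Epha4 was higher than wild type at low level, with 6.75 and 5.92 CPM in EGFP, 7.33 and 7.23 CPM in EYFP, and 3.33 and 2.35 CPM in wild type; its call in EGFP cells (1.16 ± 0.31, edgeR adjusted p = 0.02) was lost without either EGFP library (0.077 and 0.058) or wild-type replicate 2 (0.089).

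Of the 7 tested ephrins, 0 were higher and 2 lower in EYFP cells than in EGFP cells by edgeR's test, where 16.8% and 19.4% of all genes were. Efnb2, the transmembrane ligand of Ephb4, stood at 32.6 and 28.2 CPM in EGFP, 14.7 and 14.1 CPM in EYFP, and 98.4 and 73.5 CPM in wild type. Each step was a fall, -1.50 ± 0.18 from wild type to EGFP cells (edgeR adjusted p = 0.0005) and -1.07 ± 0.19 from EGFP to EYFP cells (adjusted p = 0.0042; 0.054 without EGFP replicate 1). Efnb1, ligand of Ephb2 and Ephb3, stood at 67.4 and 84 CPM in EGFP, 51.6 and 50.3 CPM in EYFP, and 128 and 123 CPM in wild type. The groups lay apart in the same order, with -0.57 ± 0.15 between EYFP and EGFP cells (edgeR adjusted p = 0.02). It did not pass without EGFP replicate 2 (-0.40, with 0.12) or either EYFP library (0.089 and 0.1), and that of EGFP against wild type (-0.73 ± 0.15, adjusted p = 0.0055) without EGFP replicate 1 (0.072). Efna1, a GPI-anchored ligand of EphA receptors, was at 47.9 and 50.1 CPM in EGFP, 59.6 and 72.1 CPM in EYFP, and 242 and 168 CPM in wild type. It was 4.19-fold lower than wild type in EGFP cells (-2.07 ± 0.20, edgeR adjusted p = 0.0002) and 3.12-fold lower in EYFP cells (-1.64 ± 0.20), and the sorted groups differed by 0.43 ± 0.20 (adjusted p = 0.13).

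Efna4 stood at 13.4 and 13.1 CPM in EGFP, 8.25 and 9.67 CPM in EYFP, and 15.1 and 12.5 CPM in wild type. Its call against wild type in EYFP cells (-0.62 ± 0.22, edgeR adjusted p = 0.037) was lost in 9 of the 13 alternatives, among them DESeq2 size factors (0.078) and the DESeq2 Wald test (0.12). Efna2, another GPI-anchored ligand, was under 3 CPM in every library and was higher than wild type in EYFP cells (3.74 ± 0.84, edgeR adjusted p = 0.0056). Its wild-type libraries stood at 0 and 0.302 CPM, so that without replicate 2 the wild-type group is at 0 and the fitted fold has no meaning. Efna3 and Efnb3 passed in none of the 3 comparisons.

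Slit1, a secreted ligand of the Robos, stood at 11.2 and 12.3 CPM in EGFP, 43.3 and 28.5 CPM in EYFP, and 1.25 and 1.45 CPM in wild type. It rose 3.04-fold between EGFP and EYFP cells (1.61 ± 0.25, edgeR adjusted p = 0.0025) and was 8.64-fold higher in EGFP cells than in wild type. Its receptors were nearly absent from the counts. Robo1 was at 0.121 and 0.0846 CPM in EGFP, 0.564 and 1.01 CPM in EYFP, and 0 in both wild-type libraries, which rests on 22 counts in all. The ratio of Robo1 between EYFP and EGFP cells was 7.72 with a counting interval of 1.87 to 68.1 (exact, 95%), and EYFP cells were at least 7.31-fold above wild type, from the floor of 3 counts over the group. Robo2 and Robo3 were below 0.5 CPM in every library, and Robo4 was at 0 in all 6. None of the 4 Robos had enough counts to be tested. Slit2 stood at 1.57 and 2.37 CPM in EGFP, 5.36 and 4.96 CPM in EYFP, and 3.41 and 2.05 CPM in wild type; its rise from EGFP to EYFP cells (1.37 ± 0.42, edgeR adjusted p = 0.037) was lost without any 1 of those 4 libraries (0.068 to 0.17). Slit3 stayed under 1 CPM in every library.

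The Unc5 receptors of netrins went in opposite directions. Unc5a stood at 39.9 and 37 CPM in EGFP, 111 and 78.3 CPM in EYFP, and 4.33 and 5.07 CPM in wild type. It was 2.46-fold higher in EYFP than in EGFP cells (1.30 ± 0.19 on the log2 scale, edgeR adjusted p = 0.0022) and 8.13-fold higher in EGFP cells than in wild type (3.02 ± 0.22, adjusted p = 5.7e-05). Unc5b stood at 11.7 and 19.4 CPM in EGFP, 2.47 and 2.52 CPM in EYFP, and 31.7 and 62.8 CPM in wild type. Here wild type was the highest group and EYFP the lowest, 6.25-fold below EGFP (-2.64 ± 0.43, edgeR adjusted p = 0.0042). The fall from wild type to EGFP cells (-1.60 ± 0.37, adjusted p = 0.013) did not pass when EGFP replicate 1 was left out (-1.18, adjusted p = 0.076). Per kilobase of transcript, the mean level of Unc5a was 1.18 CPM in wild type, below the 8.05 CPM of Unc5b, and 23.7 CPM in EYFP cells, above the 0.425 CPM of Unc5b. Unc5c and Unc5d held 1 count each.

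The promoters of this pair are shown because the paralogs moved in opposite directions. Each holds no CANNTG in the 250 bases before the start site set for that promoter, so no letter is in capitals. The Unc5a window lies inside the gene, which in RefSeq starts at 54945151.
Unc5a (chr13:54949161-54949410, plus strand): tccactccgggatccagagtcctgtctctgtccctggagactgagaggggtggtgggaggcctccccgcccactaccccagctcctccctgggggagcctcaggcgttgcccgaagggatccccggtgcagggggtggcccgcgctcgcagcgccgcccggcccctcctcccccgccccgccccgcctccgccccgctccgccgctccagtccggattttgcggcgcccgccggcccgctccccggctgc
Unc5b (chr10:60831582-60831831, minus strand): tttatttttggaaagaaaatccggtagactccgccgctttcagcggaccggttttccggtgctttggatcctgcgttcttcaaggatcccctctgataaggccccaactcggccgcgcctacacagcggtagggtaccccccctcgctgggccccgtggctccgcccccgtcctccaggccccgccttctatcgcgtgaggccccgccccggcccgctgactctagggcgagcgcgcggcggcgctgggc

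Both windows are GC-rich, at 76.8% for Unc5a and 66.8% for Unc5b against a median of 52.4% over all promoters, and they hold 25 and 27 CpG dinucleotides.

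Of the netrin ligands, Ntn4 was well measured and the other 3 had too few counts to be tested. Ntn1 was at 0 in both EGFP and both wild-type libraries and at 0.352 and 0.0841 CPM in EYFP, from 6 counts. Ntn4, a laminin-related netrin of basement membranes, stood at 23.9 and 33.2 CPM in EGFP, 24 and 28.9 CPM in EYFP, and 12.8 and 13.9 CPM in wild type. The sorted groups overlapped (-0.11 ± 0.21, edgeR adjusted p = 0.71), and each lay above wild type, by 1.10 ± 0.22 (adjusted p = 0.0049) and 0.99 ± 0.22 (adjusted p = 0.005) on the log2 scale. Without EGFP replicate 2 and without EYFP replicate 1, the small difference between the sorted groups turned to 0.15 and 0.02. Dcc, the classical netrin receptor, had 1 count in EGFP cells, 12 in EYFP cells and 0 in wild type. Its level was 9.26-fold higher in EYFP than in EGFP cells, with a counting interval of 1.37 to 396 (exact, 95%), and at least 4.39-fold above wild type, from the floor of 3 counts over the group.

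**Figure D4:**
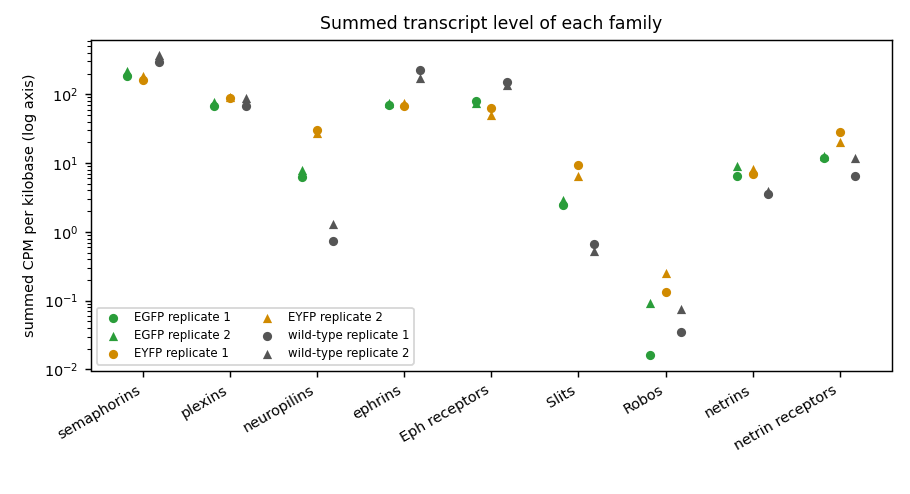
Summed CPM per kilobase of transcript of each family in each library, on a log axis, coloured by group (circles: replicate 1; triangles: replicate 2). Neuropilins stand at 0.749 and 1.3 in wild type and at 30.6 and 27.4 in EYFP cells, and the Robos lie under 0.3 in every library.

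Summed per kilobase of transcript, a scale on which genes of different length can be compared, the neuropilins stood at 6.37 and 7.96 CPM in EGFP, 30.6 and 27.4 CPM in EYFP, and 0.749 and 1.3 CPM in wild type. The ephrins together stood at 69.9 and 75.3 CPM in EGFP, 67.2 and 75 CPM in EYFP, and 229 and 172 CPM in wild type. Slits had 9.32 and 6.41 CPM in EYFP cells, while the Robos had 0.135 and 0.251 CPM. Plexin sums stood at 68.6 and 76.2 CPM in EGFP and 68.4 and 88.2 CPM in wild type, which overlapped, and at 88.5 and 90.4 CPM in EYFP. These sums are descriptions without a test, and they weigh the abundant members most.

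Genes that act with these receptors were described from lists of 62 adaptors and effectors and of 26 other guidance ligands, receptors and co-receptors. Of 60 tested effectors, 17 rose and 7 fell from EGFP to EYFP cells (40% called, 28.3% higher and 11.7% lower, against 36.2%, 16.8% and 19.4% of all genes; median log2 fold change 0.25 against 0.01). The share called in either direction is near the background. Pak3, a kinase downstream of Rac and Cdc42, stood at 11.3 and 13.5 CPM in EGFP, 120 and 99.5 CPM in EYFP, and 0.749 and 0.362 CPM in wild type (3.13 ± 0.22 between EYFP and EGFP cells, edgeR adjusted p = 2e-04). Dapk1, a death-associated kinase that acts downstream of Unc5 receptors, rose from 14.2 and 16.4 to 84.6 and 70.3 CPM (2.34 ± 0.18), and was at 0.833 and 0.724 CPM in wild type. Mical1, an oxidoreductase that disassembles actin after plexin activation, fell from 67.9 and 84.7 CPM in EGFP to 9.16 and 15.6 CPM in EYFP (-2.63 ± 0.29), with 234 and 314 CPM in wild type. Against wild type, 14 effectors were higher and 15 lower in EGFP cells, and 25 higher and 15 lower in EYFP cells, or 48.3% and 66.7% called against 41.5% and 60.6% of all genes. Dpysl3, a collapsin response mediator, stood at 18.3 and 15.6 CPM in EGFP, 19.7 and 20.6 CPM in EYFP, and 1.25 and 0.603 CPM in wild type; it passed against wild type in EGFP cells (4.23 ± 0.34) but not between the sorted groups (0.25 ± 0.26, edgeR adjusted p = 0.48). Arhgef15, which binds EphA receptors, had 15.9 and 9.93 CPM in EYFP cells against 0.0833 and 0.422 CPM in wild type (5.51 ± 0.57, edgeR adjusted p = 0.00011; 4.90 without wild-type replicate 1, and 158-fold with a counting interval of 28.2 to 6260 without wild-type replicate 2).

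Of the 15 other guidance genes tested, 6 rose and 2 fell from EGFP to EYFP cells (53.3% called, 40% higher and 13.3% lower, against 36.2%, 16.8% and 19.4% of all genes; median 0.34). Neogenin (Neo1), a receptor of netrins and repulsive guidance molecules, stood at 123 and 128 CPM in EGFP, 304 and 267 CPM in EYFP, and 105 and 115 CPM in wild type. EYFP cells were the high group (1.18 ± 0.14, edgeR adjusted p = 0.00094), and EGFP cells did not differ from wild type past the test (0.19 ± 0.14, adjusted p = 0.31). Draxin, a secreted ligand of netrin receptors, stood at 0.724 and 0.761 CPM in EGFP, 11.3 and 3.62 CPM in EYFP, and 0.167 and 0.241 CPM in wild type. Its rise from EGFP to EYFP cells was 3.31 ± 0.64 (edgeR adjusted p = 0.0066), with 2.27 without EYFP replicate 1, 3.90 without EYFP replicate 2, and an adjusted p of 0.05 without EGFP replicate 1; against wild type it was 5.10, or 4.05 and 5.69 without those EYFP libraries. Flrt1, a membrane protein that binds Unc5 receptors, rose from 2.65 and 2.62 to 16.4 and 10.5 CPM (2.35 ± 0.41, edgeR adjusted p = 0.0044). In wild type Flrt1 was at 0.0833 and 0.362 CPM, and EYFP cells lay 5.75 ± 0.54 higher on the log2 scale (without wild-type replicate 2, 165-fold with a counting interval of 29.4 to 6530). Flrt3 fell against wild type, by -1.35 ± 0.31 in EGFP cells (edgeR adjusted p = 0.011; 0.067 and 0.078 without either EGFP library) and -1.88 ± 0.31 in EYFP cells. Vegfb, a growth factor of the VEGF family, was 0.88 ± 0.24 higher in EGFP cells than in wild type (edgeR adjusted p = 0.019; 0.059 to 0.078 without EGFP replicate 1 or either wild-type library). Against wild type, 5 of the 15 were higher and 1 lower in EGFP cells, and 7 higher and 4 lower in EYFP cells, or 40% and 73.3% called against 41.5% and 60.6% of all genes.

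Several of these genes are also known from vessels, so endothelial markers were read beside them. Pecam1, Esam and Vwf had 18.7 and 14.6, 29.7 and 20.8, and 5.71 and 4.88 CPM in EYFP cells, against 3.62 and 4.23, 8.56 and 11.1, and 3.14 and 2.2 CPM in EGFP cells. Of the 9 markers 2 rose, Pecam1 and Esam, while Vwf did not pass (edgeR adjusted p = 0.21). The summed list stood at 16.6 and 18.4 CPM in EGFP, 54.8 and 41.4 CPM in EYFP, and 5.25 and 6.03 CPM in wild type. Emcn and Erg were at 0 in both sorted populations, and Cdh5 was at 0 in EGFP and at 0.141 and 0.0841 CPM in EYFP. Tek, Cldn5 and Plvap also had too few counts to be tested. Tek was lower in EYFP cells, at 0.0705 and 0.0841 CPM against 0.724 and 0.507 CPM in EGFP cells. Cldn5 lay higher in EYFP cells, and for Plvap the sorted groups overlapped. The VEGF receptor Kdr was at 0 in all but 1 EYFP and 1 wild-type library, where it stayed below 0.1 CPM. The part of endothelial transcripts in the members' values was not tested. The 7 enteric neuron markers summed to 0.0705 and 0.252 CPM in EYFP cells, with Hand2, Nos1 and Vip at 0, and to 2.05 and 1.18 CPM in EGFP cells. Fibroblast markers summed to 4.09 and 6.39 CPM in EYFP and 15.1 and 4.14 CPM in EGFP cells, with Dcn, Lum, Dpt and Thy1 at 0 in both. Glia markers summed to 4.3 and 4.12 CPM in EYFP and 1.93 and 2.28 CPM in EGFP cells, and none was called. Muscle and pericyte markers summed to 3.24 and 3.28 CPM in EYFP and 4.94 and 3.8 CPM in EGFP cells. Among them Myh11 rose (2.23 ± 0.67, edgeR adjusted p = 0.035) to 1.34 and 1.09 CPM in EYFP cells. Tagln lay the other way without passing (-1.05 ± 0.42, edgeR adjusted p = 0.09). Acta2 went from 0.241 and 0.0846 CPM in EGFP to 0 in EYFP cells. The part of these cell types was not tested. The 10 immune markers found in the table summed to 6.39 and 43.5 CPM in EGFP, 243 and 8.83 CPM in EYFP, and 153 and 185 CPM in wild type. The part of immune transcripts in the members' values was not tested. Goblet and Paneth markers fell from EGFP to EYFP cells in the same direction as Unc5b, Epha1, Ephb4, Efnb2 and Sema7a. So did all 4 tested tuft markers and 3 of 7 crypt stem markers. All 5 tuft markers summed to 178 and 104 CPM in EGFP and 5 and 13.5 CPM in EYFP cells. All 7 crypt stem markers summed to 1620 and 1310 CPM in EGFP and 814 and 777 CPM in EYFP cells. The part of these markers' cell types in the falls was not tested. Enteroendocrine markers rose from wild type to EGFP to EYFP cells, as did Nrp1, Epha7, Plxnb1, Unc5a and Slit1. Summed, the 11 stood at 504 and 568 CPM in wild type, 8960 and 13200 CPM in EGFP, and 60900 and 45300 CPM in EYFP. The part of enteroendocrine cells in the rises was not tested either.

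**Figure D5:**
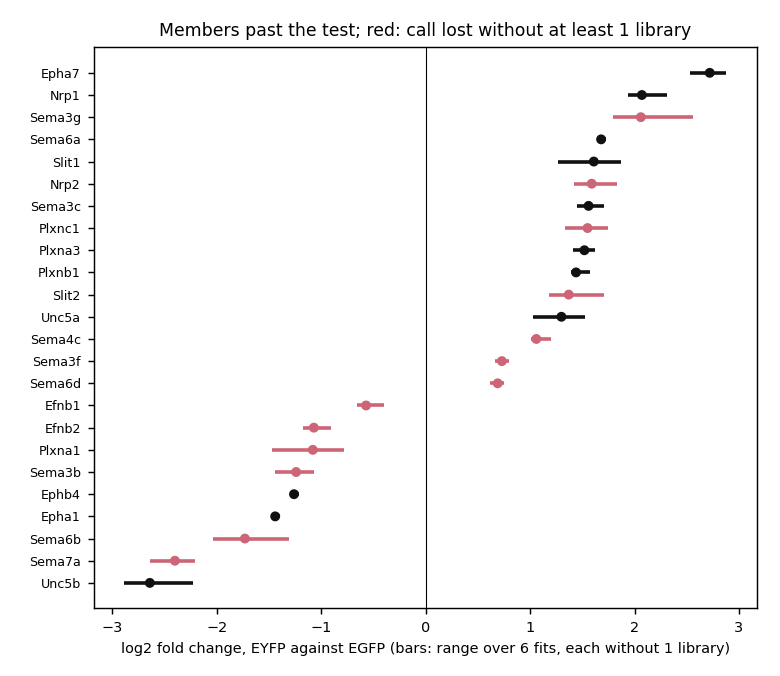
Members past the test between EYFP and EGFP cells: points give the log2 fold change over all libraries and bars its range over 6 fits that each leave out 1 library. Black marks the 11 members that passed in every one of those fits, and red those that did not; no bar crosses 0.

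The 22 members with too few counts to be tested were Dcc, Efna5, Epha5, Epha6, Epha8, Epha10, Ephb1, Ntn1, Ntn3, Ntn5, Plxna4, Plxnb3, Robo1, Robo2, Robo3, Robo4, Sema3a, Sema3d, Sema4f, Sema5b, Unc5c and Unc5d. Their highest level in any library was 1.01 CPM, for Robo1, and Epha6 and Robo4 had no count in any library. Ephb1 held 0 counts in EGFP and wild type and 7 in EYFP cells (at least 1.8-fold above EGFP and 2.56-fold above wild type, from the floor of 3 counts over the group). Sema3d held 3 counts in EGFP, 16 in EYFP and 0 in wild type, a ratio of 4.11 between EYFP and EGFP cells with a counting interval of 1.18 to 22. The other untested members held too few counts for edgeR's test. Among tested members of low level, Sema3e, a ligand that binds Plxnd1 directly, stood at 0 and 0.338 CPM in EGFP, 1.06 and 1.93 CPM in EYFP, and 0.167 and 0 CPM in wild type. Epha3, Ephb6, Slit3 and Sema6c likewise stayed under 2.5 CPM in every library. By edgeR's test Epha3 and Slit3 were higher than wild type in both sorted populations, and Ephb6 and Sema3e in EYFP cells. Without wild-type replicate 2, among other libraries, these calls were lost, except that of Epha3 in EYFP cells.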

How the data were processed

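The deposited values are estimated counts for each gene, some of them fractional. Named in the submitters' processing notes are the build mm10 and the tools RSEM 1.3.1, Bowtie2, DESeq2 1.26.0 and FastQC 0.11.8. The sources used here do not give their roles and settings, strand included. Libraries were made with a TruSeq kit and read from 1 end over 50 bases, per the labels' protocols. Count columns named EGFPaddon were assigned to the EYFP samples, whose titles alone contain addon.

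Counts were rounded, genes with low counts were removed with filterByExpr (13935 of 23845 left), and counts were scaled by TMM and tested with edgeR 4.0.16 (R 4.3.3; robust quasi-likelihood F test, 1 model of 3 group means over 6 libraries, 3 residual degrees of freedom, Benjamini-Hochberg adjustment over all genes at 0.05). Each SE is the absolute log2 fold change over the square root of F. The procedure was tested on simulated counts. Replicates of a group differed by more than sampling noise and none was merged. The members, gene lists and tests were chosen with earlier results of these data known. Members past the test in any comparison at 5 CPM or more in their highest group, and 10 members of known role, were given with every library's value; each pathway list contributed its 3 largest changes per comparison at that level. Sema6b, Efna2, Sema3e, Epha3, Ephb6, Slit3, Plxnb2, Ephb1 and Sema3d, and the marker and sex-linked genes, were named outside that rule, after their values were seen; Plxnb2 and others that passed in no comparison are given for completeness. Lengths are those of GENCODE M21 transcripts paired with the RefSeq accessions of the count table. Where a group was at 0 the fold is a bound from 3 counts over the group, and where it held 1 to 3 counts the ratio has an exact 95% interval (Clopper-Pearson). Both cover counting error only. Alternatives were DESeq2 1.42.0 size factors and Wald test, TMM without the 50 most abundant genes, no filter, at least 10 counts in each library of any group, a fit to only the 4 libraries compared, a block for the replicate number, and leaving out each library in turn. A lone library was then taken to vary as the other groups do.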

Additional observations from a re-analysis of the deposited data

How the results depend on the processing

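Leaving out 1 library moved the counts most. Between EYFP and EGFP cells the members called ranged from 14 to 27, those higher from 10 to 17 and those lower from 4 to 10; for pathway genes the ranges were 15 to 36, 13 to 25 and 2 to 11. Against wild type, EGFP cells had 7 to 13 members lower, and 20 to 32 pathway genes called, 12 to 19 higher and 7 to 15 lower. The low counts between EYFP and EGFP cells came without EGFP replicate 1, whose removal leaves 1 library in that group. The share of all tested genes called also moved between these fits, and in that comparison it was likewise lowest without EGFP replicate 1. Some differences that did not pass turned sign. Between EYFP and EGFP cells Ephb2 ranged from -0.54 to 0.05, Ntn4 from -0.26 to 0.15 and Sema4b from -0.20 to 0.07. Efna4 in EGFP cells against wild type ranged from -0.19 to 0.09 and was 0.01 in the fit to only the 4 libraries compared, and Ephb2 in EYFP cells against wild type ranged from -0.22 to 0.36. The cause was not tested. The replicate numbers did not pair the libraries (correlations of deviations 0.02, 0.10 and 0.01). With the replicate number as a block 24, 28 and 38 of the 47 tested members were called in the 3 comparisons. Of all tested genes 39.1%, 42.8% and 61.9% were called in that fit. With 2 libraries per group, low-count members such as the Robos and Dcc could not be tested. Whether depth or low expression set their counts was not tested.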
